A study of Mus musculus with 6 samples.

Results

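Atf4, a transcription factor that switches on amino acid supply when translation is restrained, and 9 genes linked to it were examined in mouse embryos with 1 working copy of Tcof1 and in their wild-type littermates. The genes were Atf4 itself, the stress genes Ddit3, Trib3 and Chac1, the amino acid enzymes Asns, Psat1, Phgdh, Aldh18a1 and Pycr1, and the cystine transporter gene Slc7a11. A probe set, several short oligonucleotides whose brightness is summarised as 1 signal per transcript, was taken for a gene when the platform annotation gave that symbol and no other. This selected 23 of 45037 probe sets that were not controls, for 9 of the 10 genes. Pycr1 was matched to none and has no signal here. Of the 23 probe sets, 19 were bright enough to be tested, for 8 genes, and both probe sets of Slc7a11 were among the 4 that were too dim.

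In the integrated stress response, kinases that sense amino acid shortage, misfolded protein, haem shortage or double-stranded RNA phosphorylate the initiation factor eIF2. Overall translation then slows while the Atf4 message is translated more, so Atf4 activity is set largely at translation and its transcript need not follow it. Atf4 protein acts with C/EBP partners at composite response elements and raises genes that make asparagine, serine and proline, import cystine and charge transfer RNAs, and, under lasting stress, Ddit3, Trib3 and Chac1. Serine, glycine and proline are in demand in growing embryonic tissue.

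Total RNA came from 3 wild-type and 3 Tcof1+/- embryos at embryonic day 8.5, with no treatment given in the labels, and every embryo went on a separate Affymetrix Mouse Genome 430 2.0 array. Tcof1 encodes treacle, a nucleolar protein of ribosomal RNA synthesis, and loss-of-function variants of its human counterpart underlie most cases of Treacher Collins syndrome, a disorder of facial development. The sources used here give neither the construction of the mutant allele nor the strain of the mice. The question put to these genes was whether the stress response or the synthesis of serine and proline moves when 1 copy of Tcof1 is lost.

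The signals are in arbitrary units, with the same trimmed mean of 150 on every array and array medians of 21.0 to 25.6. The brightest of the control probe sets for bacterial transcripts that gave no spike-in signal reached 8.55 to 13.5 on the 6 arrays, which served as the background. Brain, somite, heart and neural crest markers were present in every embryo: 25 of the 26 genes on these lists were bright enough to be tested. All 7 tested neural tube and brain markers and all 6 neural crest markers had negative differences, with medians of -0.53 and -0.55, and the smallest limma adjusted p was 0.457 and 0.0662. Their summed signal was 1659 to 1952 in the wild types against 1271 to 1553 in the heterozygotes for the neural list, without overlap. The largest part of the neural sum was Sox2, at 934 to 974 in the wild types and 732 to 910.5 in the heterozygotes. For the neural crest list the summed signal was 3284 to 3508 against 2345 to 2693, again without overlap. Most of that sum was Crabp1, at 2270 to 2484 in the wild types and 1651 to 1800 in the heterozygotes. Gene by gene, 5 of the 7 neural and 2 of the 6 neural crest markers separated with heterozygotes lower, as did 6.18% of all tested probe sets. Somite markers had a median of -0.21 and heart markers of 0.18, and 0 of the 25 passed. The part of these tissues in the results that follow was not tested. Heterozygotes had 54.5%, 60.9% and 64.9% of the wild-type mean on the 3 tested probe sets of Tcof1 itself, without overlap, and the first of these passed (log2 difference -0.88, limma adjusted p = 0.0352, against 0.385 and 0.582). Replicates 1 and 2 of both genotypes were scanned on a first day and replicates 3 on a second. The precision is limited by the number of arrays, 3 per genotype. The limma p-values weigh each difference against the spread between these single embryos, drawn towards a trend over all tested probe sets.

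The genes differ in whether the Atf4 element lies close to their start, and the matching stretches are shown for that reason. The core TGATGNAA was searched on both strands of the 250 bases before each annotated start in the RefSeq table of GRCm38.p6, where the reverse strand reads TTNCATCA. All 10 genes had an entry, with 2 starts for Psat1. A match was found for 4 genes, Asns, Chac1, Pycr1 and Slc7a11, and for 3.45% of all 32851 promoters of the same length. The stretches run 5′ to 3′ on the strand of the gene, with the match in capitals.
Asns, chr6:7693210-7693248, minus strand: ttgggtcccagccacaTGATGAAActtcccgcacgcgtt
Chac1, chr2:119351033-119351072, plus strand: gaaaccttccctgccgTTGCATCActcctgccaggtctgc
Pycr1, chr11:120643828-120643867, minus strand: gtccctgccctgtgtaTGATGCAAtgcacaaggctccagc
Slc7a11, chr3:50443637-50443695, minus strand: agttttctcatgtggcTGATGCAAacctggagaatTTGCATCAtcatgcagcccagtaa
The match of Asns began 23 bases before the start, that of Pycr1 103 bases and that of Chac1 193 bases. Slc7a11 held 2 matches, 66 and 47 bases before the start, in opposite orientation, as did few promoters in all: 0.0396% held 2 or more. For the other 6 genes these letters are not in the window searched, from which nothing follows about binding. A match is a description of the sequence and not a measured site.

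Neither the stress genes nor the serine and proline genes passed the test as a difference between genotypes. Differences were fitted with limma on log2(signal + 1.87) over all 27022 tested probe sets, and a call meant a Benjamini-Hochberg adjusted p under 0.05. Of the 19 probe sets 0 were called higher and 0 lower, where 0.0777% of all tested probe sets were called higher and 0.00370% lower. At an unadjusted p under 0.05 the count was 1, a probe set of Aldh18a1 with a lower signal in heterozygotes, where 3.21% of all tested probe sets were lower and 3.01% higher at that p. The log2 difference was negative for 13 probe sets and positive for 6, and 49.1% of all tested probe sets were negative. On the brightest probe set of each of the 8 genes, 5 differences were negative and 3 positive, with a median of -0.05 beside 0.005 over all tested probe sets. Relative to the wild-type mean, the median over the 8 genes was -0.06, -0.04 and 0.11 in wild-type embryos 1, 2 and 3 and 0.00, -0.18 and -0.09 in heterozygous embryos 1, 2 and 3, so that the genotypes overlapped.

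**Figure D1:**
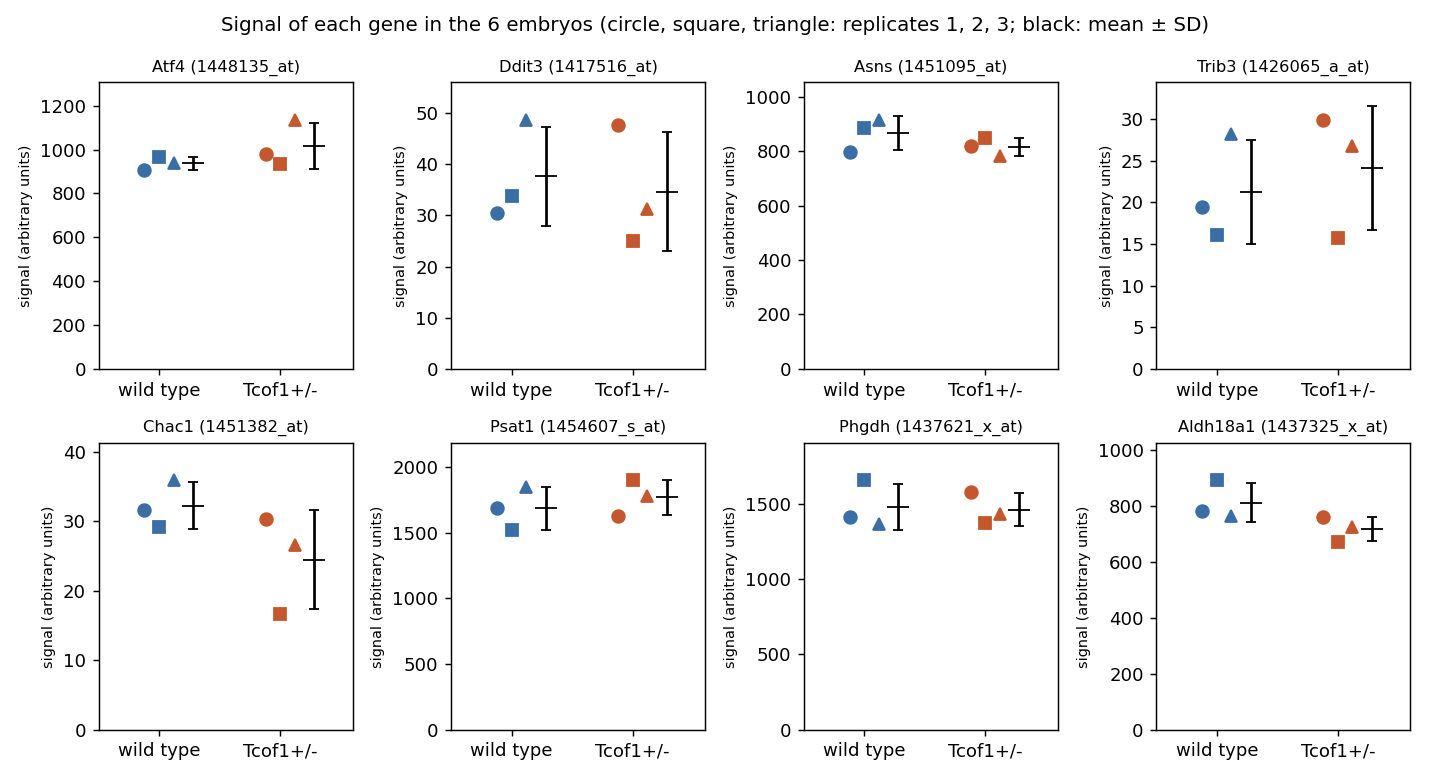
Signal in arbitrary units (vertical axes, from 0) on the brightest tested probe set of each gene, in wild-type (blue) and Tcof1+/- (orange) embryos; circles, squares and triangles are replicates 1, 2 and 3, and the black marks are the mean ± SD of 3 embryos. The genotypes overlap in 7 of the 8 panels, and in the panel of Aldh18a1 the 3 heterozygotes lie just below the 3 wild types.

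The transcripts were measured with very different precision. Of the 19 intervals at 95%, 13 lay wholly within a 1.5-fold change in either direction and 17 within a 2-fold change. The bright probe sets of Atf4, Asns, Psat1 and Phgdh belong to the narrow ones. The brightest probe set of Psat1 was compatible with 0.916 to 1.21 times the wild-type level and that of Asns with 0.83 to 1.07 times. The probe sets of Trib3 and Chac1 are dim and had wide intervals: the brighter one of Trib3 allowed 0.65 to 1.92 times the wild-type level, and Chac1 0.482 to 1.18 times. For these a change of modest size could not have been detected.

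**Figure D2:**
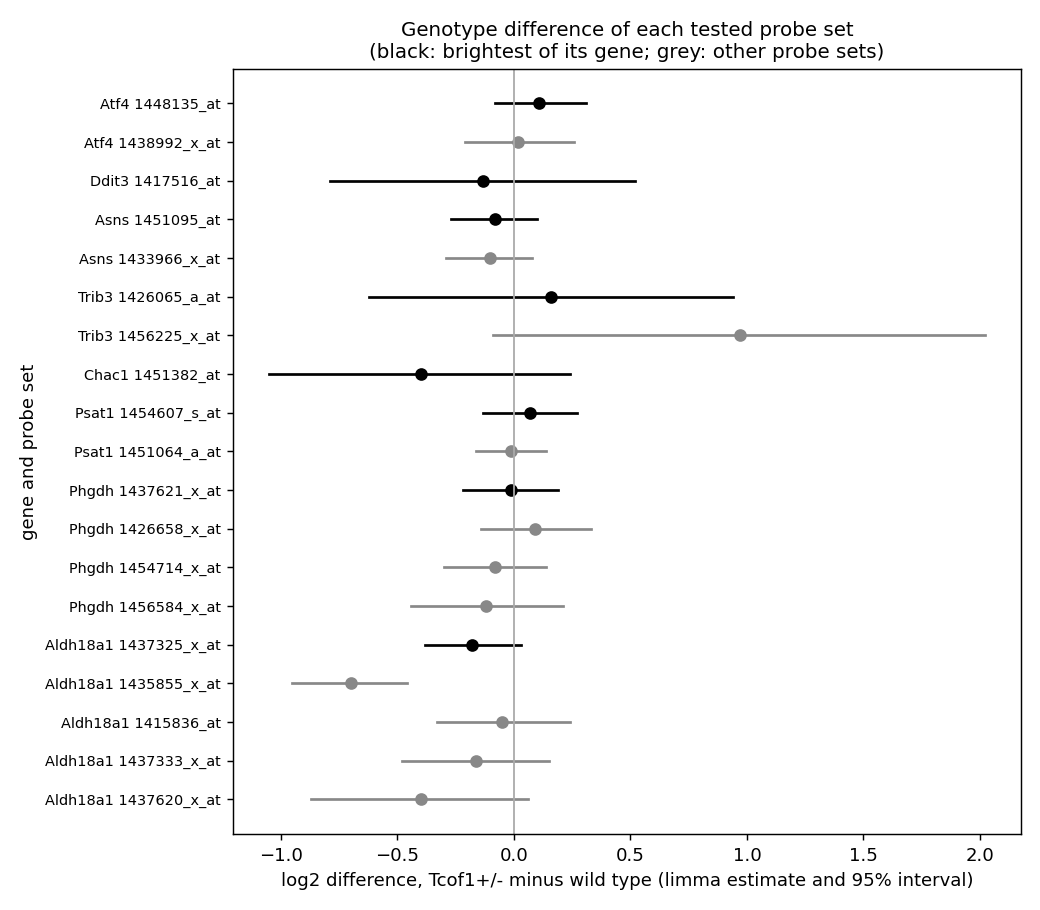
Log2 difference between Tcof1+/- and wild-type embryos (horizontal axis) for the 19 tested probe sets, as the limma estimate (point) and its 95% interval (line); black marks the brightest probe set of a gene and grey the others. All intervals cover 0 except that of Aldh18a1 1435855_x_at, from -0.95 to -0.46.

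The transcript of Atf4, the transcription factor itself, did not differ detectably. Its brightest probe set, 1448135_at, read 907, 966 and 938 in wild-type embryos 1, 2 and 3 and 978, 936 and 1136 in heterozygous embryos 1, 2 and 3. Heterozygous embryo 3 was the highest of the 6, and the other 5 lay close together. The means were 937 ± 29.7 and 1016 ± 105 (SD, n = 3 per genotype), with a log2 difference of 0.11 (SE 0.09, 95% interval -0.08 to 0.31, limma adjusted p = 0.862). The second bright probe set, 1438992_x_at, again was highest in heterozygous embryo 3, at 802 against 629 to 693 in the other 5. Its difference was 0.02 (SE 0.10, adjusted p = 0.975). A further probe set, 1439258_at, read 6.47 to 14.9, with 4 of 6 arrays above the highest background control, and was too dim to be tested.

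Ddit3, Trib3 and Chac1, the stress arm of the list, did not pass, and the genotypes overlapped on every tested probe set. Ddit3 encodes CHOP, a transcription factor of the late stress response that can promote cell death. Its brighter probe set read 30.5, 33.8 and 48.7 in the wild types and 47.6, 25 and 31.3 in the heterozygotes, so that the genotypes overlapped fully. The log2 difference was -0.13 (SE 0.29, limma adjusted p = 0.948). Embryos scanned on the first day differed by 0.10, and the single pair scanned on the second day by -0.61.

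Trib3 encodes a pseudokinase that is induced by Atf4 and CHOP and restrains them. Its brighter probe set read 19.4, 16.1 and 28.2 in the wild types and 29.9, 15.7 and 26.8 in the heterozygotes, with a log2 difference of 0.16 (SE 0.35, adjusted p = 0.948). The second, 1456225_x_at, gave the largest positive estimate of the list. It read 5.49, 11.3 and 22.1 in the wild types and 20.3, 20.0 and 34.0 in the heterozygotes. The log2 difference was 0.97 (SE 0.47, 95% interval -0.09 to 2.02) and did not pass (limma adjusted p = 0.801). The genotypes overlapped, and only 4 of the 6 arrays were above the highest background control there.

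Chac1, a glutathione-degrading enzyme gene that is among the most responsive targets of Atf4, pointed the other way. It read 31.6, 29.2 and 35.9 in the wild types and 30.3, 16.6 and 26.6 in the heterozygotes. Heterozygous embryo 2 stood well below the other 5. The means were 32.2 ± 3.43 and 24.5 ± 7.10 (SD, n = 3 per genotype), and the log2 difference of -0.40 (SE 0.29) did not pass (limma adjusted p = 0.853).

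On the brightest probe set of each gene, heterozygous embryo 2 had the lowest signal of the 6 embryos for Ddit3, Trib3 and Chac1, at 66.4%, 73.9% and 51.5% of the wild-type mean. For Trib3 it lay just under wild-type embryo 2 (15.7 against 16.1), and on 1456225_x_at it was above wild-type embryos 1 and 2. Heterozygous embryo 1 stood at 127%, 141% and 94.1%, and wild-type embryo 3 at 129%, 133% and 111%. Markers of yolk sac endoderm also differed most between these heterozygous embryos. The summed signal of the 9 tested markers was 1927, 10328 and 9333 in the wild types and 16494, 859 and 9548 in the heterozygotes. Of the 9 log2 differences 8 were negative and none was called. On the signal scale the heterozygote means of all 9 were above those of the wild types, at 111% to 178%. Primitive erythroid markers, with 8 tested and all 8 differences negative, summed to 5879 to 13875 in the wild types, 341 in heterozygous embryo 1, and 7488 and 11366 in heterozygous embryos 2 and 3. The part of either tissue in these signals was not tested, and in whole embryos fewer cells of a type cannot be told apart from less RNA per cell. Of 8 matched markers of maternal decidua and adult blood, Lyz2 and Dcn were bright enough to be tested and did not pass (limma adjusted p = 0.956 and 0.919). The other 6 stayed at or below 19.9 in every embryo.

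**Figure D3:**
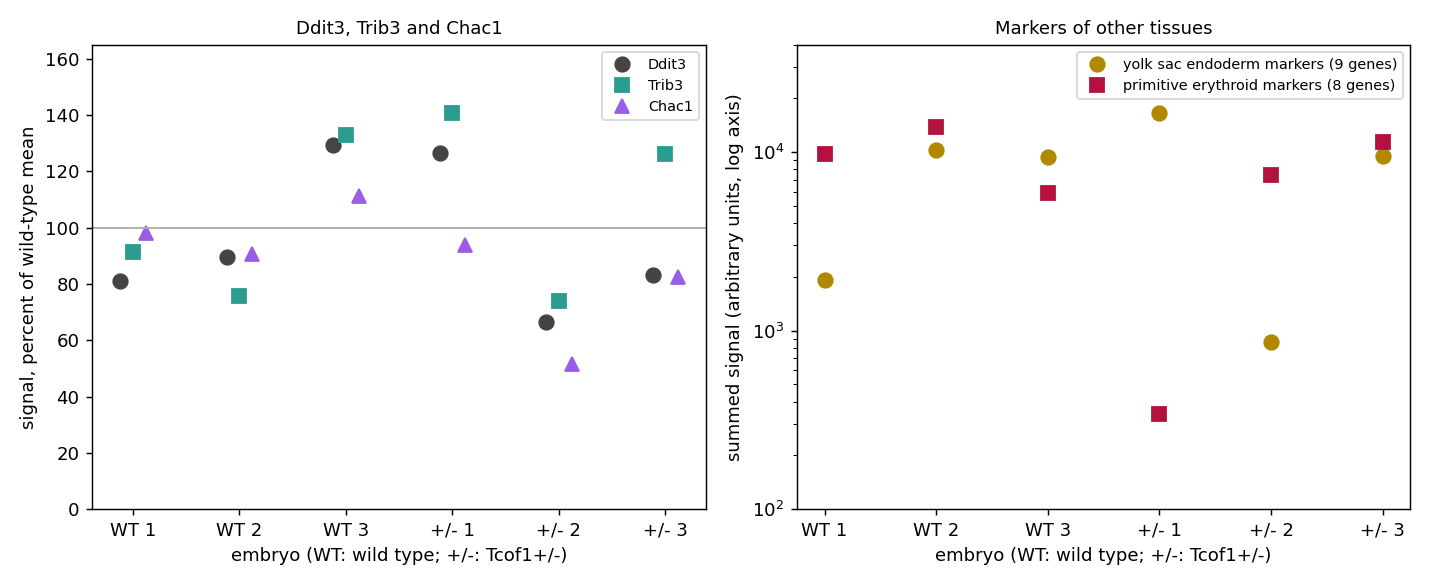
Left, signal on the brightest probe set of Ddit3, Trib3 and Chac1 in each embryo as percent of the wild-type mean (line at 100); right, summed signal of 9 yolk sac endoderm and 8 primitive erythroid markers on a log axis. Heterozygous embryo 2 is lowest on these 3 probe sets and for the yolk sac markers (859), and heterozygous embryo 1 is highest for the yolk sac markers (16494) and lowest for the erythroid markers (341).

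Asns, which makes asparagine from aspartate and glutamine and is the classical target of the amino acid response, did not differ detectably. Its brighter probe set, 1451095_at, read 796, 885 and 915 in the wild types and 818, 847 and 782 in the heterozygotes, which overlapped. The log2 difference was -0.08 (SE 0.08, 95% interval -0.27 to 0.10, limma adjusted p = 0.888). On 1433966_x_at the values were 627, 656 and 621 against 556, 614 and 605. There the heterozygotes lay below the wild types without overlap, by -0.10 (SE 0.08, adjusted p = 0.863).

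Phgdh and Psat1 encode the first and second enzymes of serine synthesis from glycolysis, and both were bright, with differences near 0 and narrow intervals. Phgdh 1437621_x_at read 1415, 1655 and 1365 in the wild types and 1581, 1371 and 1433 in the heterozygotes. The log2 difference was -0.01 (SE 0.09, 95% interval -0.22 to 0.19, limma adjusted p = 0.984), and its other 3 tested probe sets differed by 0.09, -0.08 and -0.12. Among these, 1456584_x_at read 566 in heterozygous embryo 1 and 760 to 869 elsewhere, a low value that the 3 other Phgdh probe sets did not show in that embryo. A further 2 probe sets name Phgdh together with a predicted gene and were left out, so signals of near-identical copies may enter.

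Psat1 1454607_s_at read 1692, 1521 and 1845 in the wild types and 1629, 1898 and 1783 in the heterozygotes, with a log2 difference of 0.07 (SE 0.09, limma adjusted p = 0.908). Its other probe set, 1451064_a_at, was the most precisely measured of the list and differed by -0.01, with a 95% interval of -0.16 to 0.14. On both probe sets the genotypes overlapped.

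Aldh18a1 stood apart from the other genes, on 1 probe set more than on the rest. The gene encodes the mitochondrial synthase of pyrroline-5-carboxylate, the step from glutamate towards proline, ornithine and arginine. On 1435855_x_at the wild types read 635, 640 and 730 and the heterozygotes 469, 384 and 380. All 3 heterozygotes lay below all 3 wild types, at 61.5% of the wild-type mean. The log2 difference was -0.70 (SE 0.11, 95% interval -0.95 to -0.46), the 29th smallest p of the 27022 probe sets, and it did not pass (limma adjusted p = 0.0791). Within the first scan day it was -0.58, and within the second -0.94.

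The other 4 probe sets of Aldh18a1 gave smaller differences of the same sign. The brightest, 1437325_x_at, read 783, 892 and 764 in the wild types and 760, 672 and 725 in the heterozygotes, which just separated the genotypes (log2 difference -0.18, SE 0.09, limma adjusted p = 0.810). On 1437620_x_at the values were 50.5, 43.9 and 44.1 against 35.0, 30.2 and 38.4, again without overlap (-0.40, SE 0.21, adjusted p = 0.810). The remaining probe sets, 1415836_at and 1437333_x_at, differed by -0.05 and -0.16 (adjusted p = 0.959 and 0.87), and their genotypes overlapped. All but 1415836_at have names ending in _x_at, and whether transcripts of other genes enter these signals was not tested. Within arrays, 1435855_x_at was 1.92 ± 0.18 above the mean of the other 4 on the log2 scale in wild types and 1.41 ± 0.11 above it in heterozygotes (SD, n = 3 per genotype). That probe set was picked for its difference, so this gap is a description. The mean over all 5 probe sets differed by -0.30 (SE 0.10, 95% interval -0.52 to -0.08, limma adjusted p = 0.609 over genes). This mean includes the picked probe set, and the mean of the other 4 differed by -0.20.

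**Figure D4:**
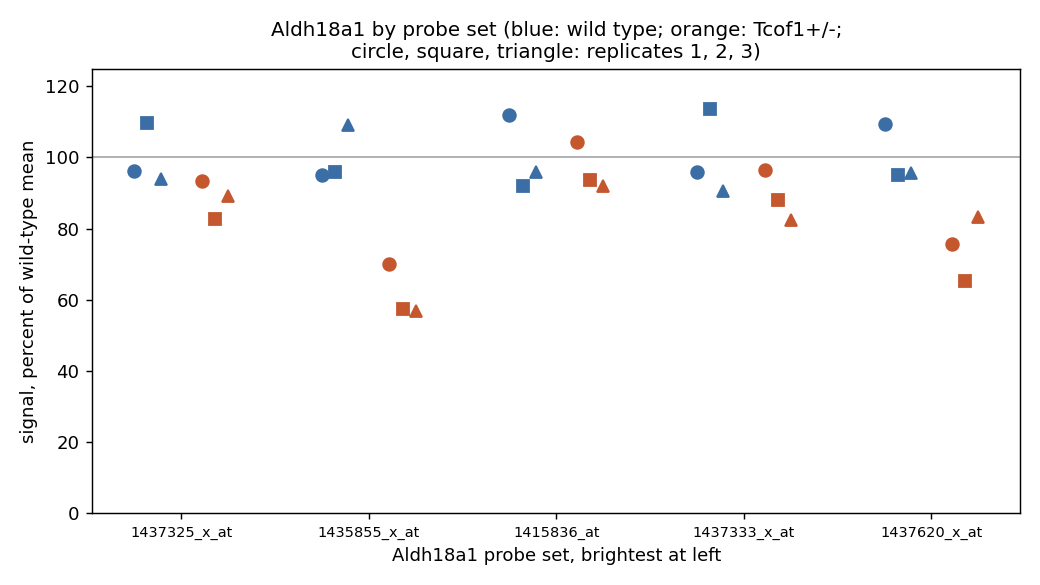
Signal of the 5 Aldh18a1 probe sets as percent of their wild-type mean (vertical axis from 0, line at 100), brightest at left; blue marks wild-type and orange Tcof1+/- embryos, and circles, squares and triangles are replicates 1, 2 and 3. The genotypes separate on 1437325_x_at, 1435855_x_at and 1437620_x_at, most widely on 1435855_x_at, where the heterozygotes average 61.5%.

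Over all 19 tested probe sets, the genotypes did not overlap on 4, all lower in heterozygotes, where 6.18% of all tested probe sets separated in that direction. Of these 4, 3 belong to Aldh18a1 and 1 to Asns. Probe sets annotated to 1 gene are not independent counts.

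Slc7a11, the cystine importer that supplies glutathione synthesis, read near the background controls. Its probe sets read 0.595 to 13.7 and 1.10 to 14.3 over the 6 embryos, and on each only 2 of 6 arrays were above the highest background control. No difference could be measured. The second probe set of Ddit3 was as dim, at 2.34 to 14.4, with 1 array above the controls.

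Around this list, in the wider network of amino acid supply and stress responses, 1 gene passed. It is a target of p53 as well as of Atf4, and the part of either was not tested. Of 149 further genes on 10 lists, 141 were matched to a probe set and 133 were tested, with 67 positive and 66 negative differences. Pmaip1 was the gene that passed, and it rose; in all, 0.0814% of all tested probe sets passed in either direction. At an unadjusted p under 0.05, 9 were higher and 3 lower, or 9.02% of the 133, where 6.22% of all tested probe sets passed. The lists were chosen with earlier results of these data known.

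Of 15 tested stress targets of Atf4 outside the main list, 10 differences were positive and 5 negative, with a median of 0.06. Pmaip1, the gene of the pro-apoptotic protein Noxa and a target of p53 as well as of Atf4, rose. It read 63.4, 53.5 and 57.3 in the wild types and 170, 191 and 131 in the heterozygotes, with a log2 difference of 1.45 (SE 0.17, limma adjusted p = 0.0211). Sesn2, a leucine sensor gene that also answers to p53, followed at 88.3, 61.3 and 82.9 against 203, 213 and 121. Its heterozygotes lay above all wild types, by 1.16 (SE 0.23), and did not pass (adjusted p = 0.262). The mean of its tested probe sets differed by 0.90 and passed over genes (adjusted p = 0.0476). The call of Pmaip1 was lost without wild-type embryo 1, 2 or 3 or heterozygous embryo 1 or 2 (adjusted p from 0.0768 to 0.104), on the first scan day alone (0.0693), and without the intensity trend in the variance prior (0.268).

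Upstream, the 15 tested eIF2 kinases and regulators had a median difference of -0.04 and a range of -0.24 to 0.24. Eif2b3, a subunit of the exchange factor that recharges eIF2, differed by 0.24 and the adaptor gene Nck1 by 0.17, with limma adjusted p of 0.782 and 0.831. Among 8 bZIP partners and feedback factors, Fos read 60.6, 59.2 and 42.5 against 85.2, 98.9 and 62.1, higher in each heterozygote than in each wild type. Its difference of 0.58 and that of Jun, -0.35, did not pass (adjusted p = 0.774 and 0.781).

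In the neighbouring branches of metabolism 0 genes passed. The 12 amino acid transporters had a median of -0.02, with Slc7a5, which carries leucine, at -0.28 and the serine and alanine carrier gene Slc1a4 at -0.21 (limma adjusted p = 0.824 and 0.838). The 11 genes of serine, glycine and mitochondrial folate metabolism had a median of -0.03, with the glycine cleavage genes Gldc at 0.19 and Gcsh at 0.12 (adjusted p = 0.824 and 0.848). The 7 tested proline, ornithine and arginine enzymes ranged from -0.03 to 0.21 on their brightest probe sets, beside -0.18 on the brightest of Aldh18a1. Oat, which links ornithine to the same pyrroline intermediate, differed by 0.15 and Aldh4a1, which degrades it, by 0.17 (adjusted p = 0.897 and 0.908).

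Of the 11 enzymes of glutamate, aspartate and alanine, Glud1, glutamate dehydrogenase, differed by 0.24 and Bcat1, a branched-chain transaminase, by -0.21 (limma adjusted p = 0.759 and 0.781). The median of these 11 was -0.05. Among 12 cystine and glutathione genes, Cth, which releases cysteine from cystathionine, read 467, 481 and 579 in the wild types and 442, 367 and 389 in the heterozygotes, without overlap. It differed by -0.35 and Gclc, the catalytic subunit of glutathione synthesis, by -0.25 (adjusted p = 0.720 and 0.793).

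The aminoacyl-tRNA synthetases, many of which Atf4 raises together, stayed close to 0. The 22 tested genes of their list, which also holds Aimp1, Aimp2 and Xpot, lay between -0.21 and 0.10 with a median of 0.01. Of these, 12 were positive and 10 negative. Fars2 and Aars had the smallest p, at -0.21 and -0.11 (limma adjusted p = 0.845 and 0.851). The 20 tested genes of the parallel Atf6 and Xbp1 branches of the unfolded protein response had the same median of 0.01. They include Atf6, Xbp1 and Ern1 themselves beside chaperones of the endoplasmic reticulum. Pdia3 differed by 0.27 and Hsp90b1 by 0.10 (adjusted p = 0.781 and 0.817), and 0 passed.

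**Figure D5:**
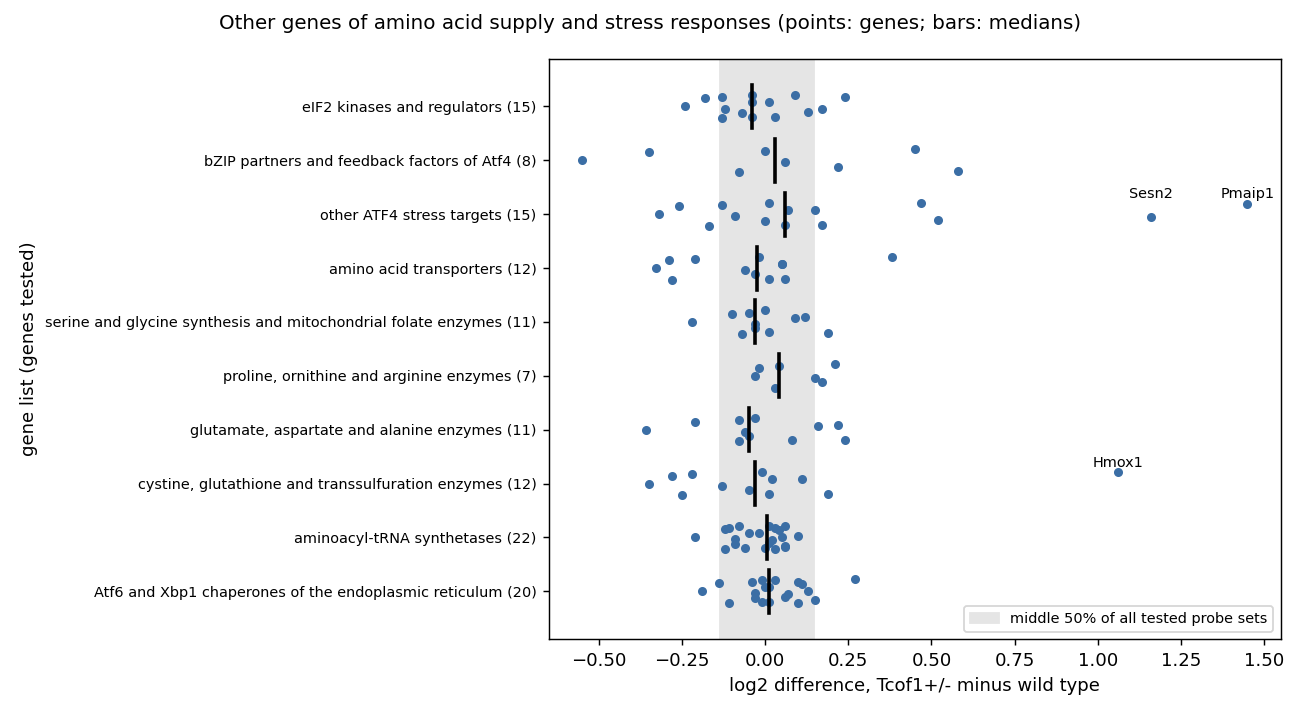
Log2 difference between Tcof1+/- and wild-type embryos (horizontal axis) of each tested gene on 10 lists (points; the number tested in brackets), with list medians as black bars and the middle 50% of all tested probe sets shaded. The medians lie between -0.05 and 0.06, and the genes beyond 1 are Pmaip1, Sesn2 and Hmox1, of which Pmaip1 passed. Hmox1 is dim and its genotypes overlap (1.06, SE 0.66, limma adjusted p = 0.839). It read 1.64 in wild-type embryo 2 and 15.4 to 27.0 elsewhere.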

How the data were processed

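Values deposited by the authors are linear intensities, 1 for each probe set on each array, from the GCOS software according to the submitters' processing notes. Neither the version of GCOS nor the signal algorithm is given in the sources used here. From the values, every array has the same 2% trimmed mean, so overall brightness was removed before deposit. Per the labels' protocols, 100 ng of total RNA from each embryo was amplified in 2 cycles, and 20 µg of labelled cRNA was hybridised. Scan day and fluidics module were read per the file headers of the instrument records; no module held both genotypes, so module and genotype cannot be told apart.

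Of 45101 probe sets, 64 controls were left out. The 40% with the lowest mean of log2(signal + 1.87), below a signal of about 13.2, were not tested; 1.87 is the 10th percentile of the values. Differences were fitted with limma 3.58.1 in R 4.3.3 (eBayes with an intensity trend, two-sided, Benjamini-Hochberg over 27022 probe sets), with genotype as the sole term. The fit was also run on simulated data with changes larger than any of the list, which says nothing about detection at the sizes seen here. Fold changes are on the log2(signal + 1.87) scale and understate those of dim genes. Symbols came from the platform annotation, checked by gene identifier against RefSeq of GRCm38.p6, which changed 0. All genes of the list are named, and of each further list every gene that passed and the 2 with the smallest p. Hmox1, and the genes outside the list whose values are given per embryo, were chosen after their values were seen. The genes and lists were chosen with earlier results of these data known. Alternatives were another pseudocount, normalization, filter, variance prior, array weights, scan day or replicate number as a block, the first scan day alone, gene means and each array left out.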

Additional observations from a re-analysis of the deposited data

How the results depend on the processing

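No probe set of the list was called in any of the 17 alternatives fitted per probe set or with the mean of a gene's probe sets, with 0 past the threshold in each. The median difference ranged from -0.09 to 0.03 over the arrays left out in turn, and all alternatives moved it by less than the spread of 0.09 between embryos. Aldh18a1 1435855_x_at ranged from -0.80 to -0.58, with a smallest limma adjusted p of 0.0575. Of 150 differences recomputed for the brightest probe sets and 1435855_x_at, 141 kept their sign. Ddit3 became 0.10 on the first scan day alone, and 0.06 without wild-type embryo 3 or heterozygous embryo 2 (from -0.38 to 0.06 over the arrays left out). Phgdh became 0.0049 with array weights and ranged from -0.07 to 0.07 over the arrays left out, Psat1 from -0.0003 to 0.14 and Trib3 from -0.01 to 0.42. These are estimates near 0 relative to their error. The count of further genes that passed, 1, became 0 without the intensity trend, with the replicate block and on the first scan day alone, 2 with gene means, and 0 to 1 with an array left out. Embryos with the same replicate number were scanned on the same day, and their deviations correlated at -0.079, -0.105 and -0.024. Whether they share anything else cannot be told from these correlations. Under the block Pmaip1 had a limma adjusted p of 0.0875, and no other call changed among the genes of the main and further lists. Dim probe sets limit what could be seen of Ddit3, Trib3, Chac1 and Slc7a11.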
